A study of Mus musculus with 6 samples.

Results

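The 10 genes described here are the early growth response factors Egr1, Egr2 and Egr3, the orphan nuclear receptors Nr4a1, Nr4a2 and Nr4a3, the immediate early response genes Ier2, Ier3 and Ier5, and the proto-oncogene Myc. They were taken by symbol, as 10 of the 24421 genes listed in the deposited count files, with no threshold on a measured value. The set, and the lists placed beside it, were chosen with earlier results of these data known. Primary liver sinusoidal endothelial cells (LSECs) of wild-genotype mice, which form the porous wall of the liver's capillaries, had been picked out by magnetic beads carrying antibody to CD146, a surface protein of endothelium that other liver cells can also bear. All cells were plated overnight on collagen I and kept without serum for 6 h. In the pressure group, 3 samples (replicates 1 to 3) then spent 8 h under periodic hydrostatic pressure, with an absolute range of 101 to 135 kPa and a frequency of 0.01 Hz. The control group was 3 samples (replicates 1 to 3) without that stimulus. Nothing in the labels says whether the samples came from separate animals or cultures, so p-values reflect only how these samples scatter, and that scatter may be technical.

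Immediate-early genes are transcribed within minutes of a stimulus, without new protein synthesis, and most of their mRNAs are short-lived. Serum response factor (SRF) with its cofactors acts on many of them at CArG boxes, and the cAMP-response-element binding factor CREB acts at cAMP response elements. In endothelium, EGR1 and the NR4A receptors are known to respond to shear stress and growth factors, and MYC drives ribosome production and growth.

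Deposited totals were 17659684, 17675569 and 12922959 counts in pressure replicates 1 to 3, and 18655749, 17470278 and 13986286 counts in control replicates 1 to 3. Levels are CPM, counts relative to library size, scaled between libraries by trimmed mean of M values (TMM) factors of 0.909 to 0.946 in pressure libraries and 1.074 to 1.083 in control libraries. Of 12892 genes tested with edgeR's quasi-likelihood test, 68.8% passed a Benjamini-Hochberg adjusted p of 0.05, with 33.7% higher and 35.1% lower under pressure, so a call by itself was common. The counts of called genes in every list below are to be read beside these shares. Endothelial markers were abundant in every library, though of the 10 listed 7 were lower under pressure and none was higher. Their sums were 4858 to 5762 CPM under pressure and 5999 to 6378 CPM in control. Pecam1 averaged 1095 ± 36.8 CPM under pressure and 1127 ± 17.5 CPM in control, while Stab2, a scavenger receptor of LSECs, averaged 128 ± 5.54 CPM under pressure and 286.5 ± 17.5 CPM in control (SD, n = 3 each). Markers of Kupffer cells, the liver's resident macrophages, were abundant too: the 10 listed summed to 5173 to 5605 CPM under pressure and 5429 to 5965 CPM in control. The counts therefore describe a population with both kinds of transcript, and fewer cells of a type cannot be told apart from less RNA per cell.

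All 10 genes passed the low-count filter and were tested. Of these, 8 were higher under pressure, against a background of 33.7%, Egr2 was lower, and Ier5 was not called. The group values of all 10 did not overlap, which held for 71.9% of all tested genes. The 8 included 5 genes that were at least 2-fold higher, Ier3, Egr3, Myc, Nr4a3 and Ier2, and 9.64% of all tested genes were called and at least 2-fold higher. The median log2 fold change was 1.13 over the 10 genes and -0.02 over all tested genes. Because earlier results of these data were known when the set was chosen, these contrasts describe it and are no independent evidence.

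**Figure D1:**
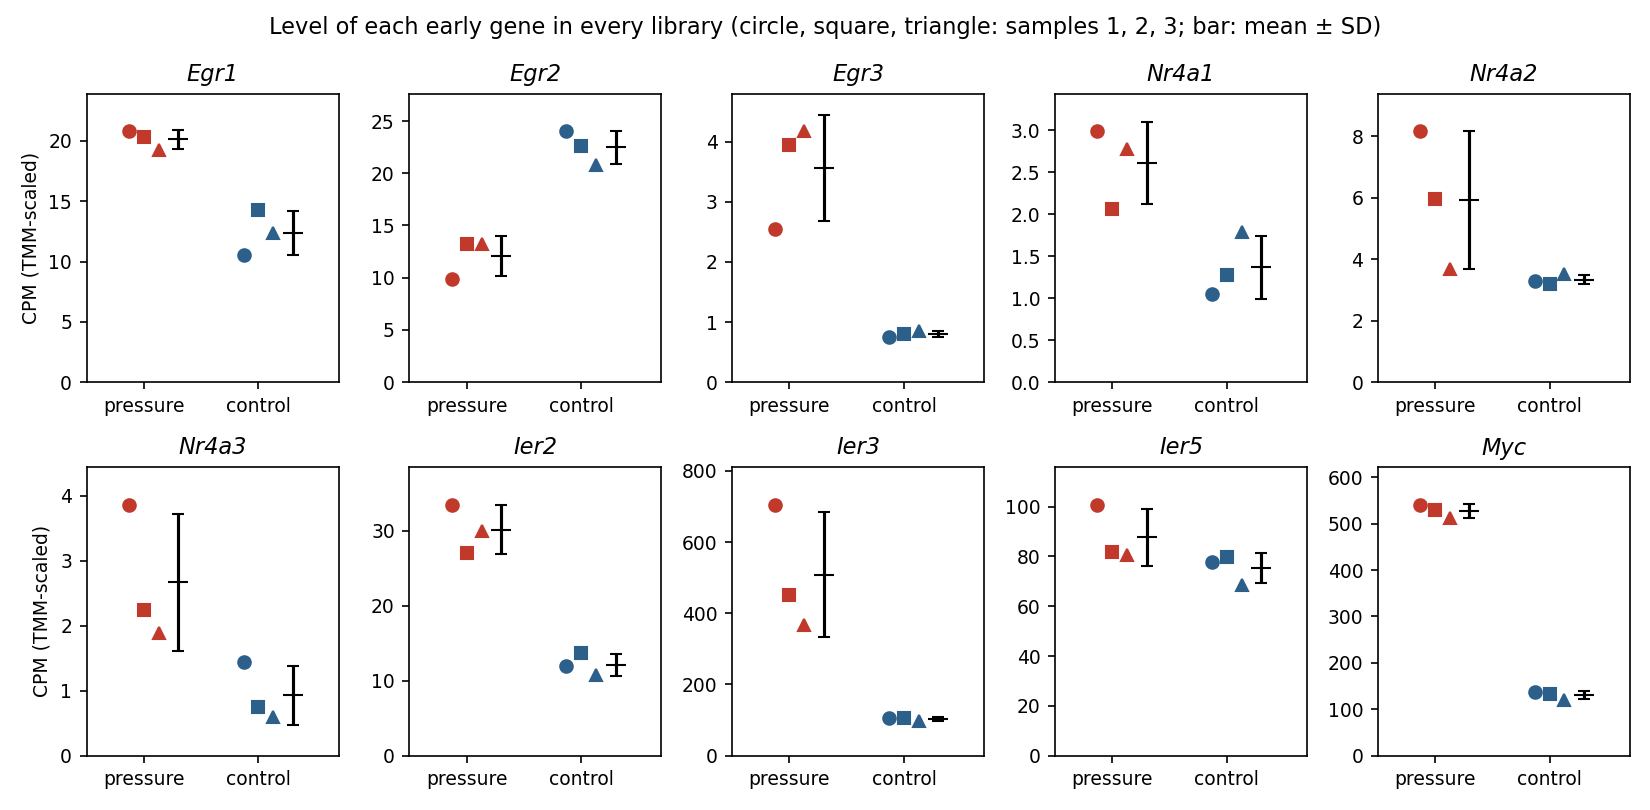
Level of each of the 10 genes in every library, in TMM-scaled CPM on linear axes that start at 0 and differ between genes, with pressure samples left of control samples; points are libraries and bars are the mean ± SD of 3 libraries. Pressure lies above control for every gene except Egr2, whose pressure libraries hold 9.84 to 13.3 CPM and whose control libraries hold 20.8 to 24.0 CPM.

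The EGR factors did not move together. Egr1 and Egr3 rose and Egr2 fell under pressure. These are zinc-finger transcription factors that share a GC-rich binding site. EGR1 is known in the vessel wall for inducing growth factors and tissue factor, EGR2 for myelination and macrophage and lymphocyte programmes, and EGR3 for muscle spindle and lymphocyte development.

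Egr1 measured 20.8, 20.4 and 19.2 CPM in pressure replicates 1 to 3, against 10.5, 14.2 and 12.4 CPM in control replicates 1 to 3. Every pressure library was above every control library. The log2 fold change was 0.70 ± 0.12 (SE), with a 95% interval of 0.43 to 0.98 and an edgeR adjusted p of 4.55e-04.

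Egr2, at chr10:67535475-67542188 on the plus strand (GRCm38, GENCODE M21), measured 9.84, 13.3 and 13.2 CPM in pressure replicates 1 to 3, against 24.0, 22.6 and 20.8 CPM in control replicates 1 to 3. All pressure libraries were below all control libraries, and pressure replicate 1 was the lowest. Pressure over control, the log2 fold change was -0.90 ± 0.13 (SE, 95% interval -1.19 to -0.61), with an edgeR adjusted p of 1.24e-04. Because EGR2 is also a macrophage factor, the Kupffer cell markers are set beside it: 2 of 10 rose, 3 fell and 5 did not pass, and their summed ranges, given above, overlapped between the groups. Clec4f, a lectin specific to Kupffer cells, averaged 80.3 ± 8.02 CPM under pressure and 76.0 ± 6.26 CPM in control (SD, n = 3 each), and did not pass the test. The part of the macrophage transcripts in the Egr2 difference was not tested.

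Egr3, at chr14:70077203-70082614 on the plus strand, was scarce, with 41, 65 and 51 counts in pressure replicates 1 to 3 against 15, 15 and 13 counts in control replicates 1 to 3. In CPM these were 2.55, 3.95 and 4.18 under pressure and 0.749, 0.800 and 0.859 in control. The lowest pressure library was well above the highest control library. The change on the log2 scale was 2.13 ± 0.26 (SE, 95% interval 1.55 to 2.72; edgeR adjusted p = 4.13e-05), which placed Egr3 at percentile 98.1 of all tested genes. The remaining member, Egr4, had 5, 8 and 12 counts in pressure libraries against 2, 3 and 1 counts in control libraries and was too low to be tested.

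The balance among the EGR genes can be read within each library as a log2 ratio of counts, which no scaling between libraries affects. Egr2 over Egr1 was -0.75 ± 0.29 under pressure and 0.87 ± 0.28 in control (SD, n = 3 each), so Egr1 outnumbered Egr2 in every pressure library and Egr2 outnumbered Egr1 in every control library. Egr3 over Egr2 differed by 2.99 between the groups and Egr3 over Egr1 by 1.37, again without overlap. The smallest two-sided p that an exact permutation test can give with 3 against 3 is 0.1, and these ratios reached it. Over the 12 ratios computed the adjusted p was 0.133, so none passed 0.05. How often ratios of other gene pairs stay without overlap was not computed.

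NAB1 and NAB2 are corepressors that bind EGR factors, and NAB2 is known as an EGR1 target. The pair moved apart. Nab1 averaged 139.9 ± 10.4 CPM under pressure and 76.3 ± 4.38 CPM in control (log2 fold change 0.88 ± 0.08, SE; edgeR adjusted p = 7.34e-06). Nab2 averaged 9.58 ± 1.90 CPM under pressure and 20.6 ± 1.39 CPM in control (SD, n = 3 each), with a log2 fold change of -1.12 ± 0.14 (SE) and an edgeR adjusted p of 4.80e-05. The Nab2 value is uncertain. On the opposite strand, GENCODE has 1050 exonic bases of Nab2 shared with the antisense gene Gm16229, whose level was not analysed here, 151 shared with Nemp1 and 40 with Stat6, and the count files list Nemp1 under its older symbol Tmem194. Stat6 and Tmem194 were both lower under pressure, with log2 fold changes of -2.17 ± 0.07 for Stat6 and -3.39 ± 0.23 for Tmem194 (SE). The library kit keeps strand, but whether counting used it is not given in the sources used here. Reads in the shared bases, a part of the 2941 exonic bases of Nab2, therefore cannot be told apart between these genes.

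Among 14 tested genes reported as EGR1 targets in vascular cells, 6 rose, 5 fell and 3 did not pass. Over all tested genes, 33.7% rose and 35.1% fell. The median log2 fold change of the 14 was 0.12, and the 5 that fell include Nab2 with its uncertain value. Plaur, the urokinase receptor, averaged 381.7 ± 28.5 CPM under pressure and 128.7 ± 10.2 CPM in control (log2 fold change 1.57 ± 0.09, SE). Pdgfa, a platelet-derived growth factor chain, also rose, with 24.8 ± 3.31 CPM under pressure and 9.93 ± 1.88 CPM in control. Tgfb1, a cytokine that promotes matrix deposition, fell to 86.4 ± 4.60 CPM under pressure, against 149.7 ± 9.73 CPM in control.

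All 3 NR4A genes were higher under pressure, each at a low level. They encode orphan nuclear receptors: NR4A1 (Nur77) and NR4A3 (NOR1) are known for roles in vascular and inflammatory cells, and NR4A2 (Nurr1) for dopaminergic neurons. Binding as monomers to the NBRE element, they are regulated largely through the amount of their mRNA and protein.

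RefSeq windows of the 250 bases before a start (GRCm38.p6) were at hand for 6 of the 10 genes, among them all NR4A genes. Windows of the NR4A genes are shown because each holds 4 copies of the core of the cAMP response element, TGACG or its complement CGTCA, in its full length. Of 32851 mouse windows, 17.8% hold at least 1 copy and 0.137% hold at least 4. Capitals mark the cores, and in Nr4a2 also a TATAAA hexamer on the other strand, present on either strand in 12.4% of windows. The Nr4a3 window was shortened to 98 bases where an annotated exon begins, so 3 of its cores are in view. The spans are chr15:101266596-101266845 (plus strand) for Nr4a1, chr2:57124004-57124253 (minus strand) for Nr4a2 and chr4:48045055-48045152 (plus strand) for Nr4a3. The Nr4a1 window lies within that gene's annotated span, between its exons, and the others lie just upstream of the first annotated exon.
Nr4a1: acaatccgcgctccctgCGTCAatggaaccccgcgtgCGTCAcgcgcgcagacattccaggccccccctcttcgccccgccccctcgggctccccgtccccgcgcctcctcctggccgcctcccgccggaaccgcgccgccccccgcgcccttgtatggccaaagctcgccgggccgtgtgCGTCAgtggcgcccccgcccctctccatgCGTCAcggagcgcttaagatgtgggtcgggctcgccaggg
Nr4a2: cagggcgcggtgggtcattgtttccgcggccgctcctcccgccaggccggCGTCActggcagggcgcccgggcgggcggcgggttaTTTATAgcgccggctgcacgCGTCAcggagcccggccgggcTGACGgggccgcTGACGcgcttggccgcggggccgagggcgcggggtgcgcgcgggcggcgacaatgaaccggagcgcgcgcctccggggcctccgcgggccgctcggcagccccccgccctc
Nr4a3: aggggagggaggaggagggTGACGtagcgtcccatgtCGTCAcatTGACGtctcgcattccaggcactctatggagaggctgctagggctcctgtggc
The windows are rich in G and C, at 74.4% for Nr4a1, 80% for Nr4a2 and 63.6% for the full window of Nr4a3, against a median of 52.4% over all windows, and the part of base composition in the core counts was not tested. The full element TGACGTCA, in 1.55% of all windows, was in no window of these 6 genes, and neither was the NBRE AAAGGTCA, in 1.34% of windows. A match is a description of the letters and no evidence of binding. The core was added to the motif list after the data were at hand.

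Nr4a1, at chr15:101254269-101274795, had 48, 34 and 34 counts in pressure replicates 1 to 3, against 21, 24 and 27 counts in control replicates 1 to 3. In CPM these were 2.99, 2.07 and 2.78 under pressure and 1.05, 1.28 and 1.78 in control. The groups did not overlap, but the lowest pressure library was close to the highest control library. The log2 fold change was 0.95 ± 0.26 (SE, 95% interval 0.38 to 1.52), with an edgeR adjusted p of 0.00722. With 1 library left out it was lowest without control replicate 1, at 0.77 (edgeR adjusted p = 0.0402).

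Nr4a2, at chr2:57106830-57124003 on the minus strand, had 131, 98 and 45 counts in pressure replicates 1 to 3, against 66, 60 and 53 counts in control replicates 1 to 3. That is 8.16, 5.96 and 3.68 CPM under pressure and 3.30, 3.20 and 3.50 CPM in control. Pressure replicate 3 lay barely above the highest control library, while replicate 1 was highest. The log2 fold change of 0.86 ± 0.25 (SE, 95% interval 0.31 to 1.41; edgeR adjusted p = 0.00997) was 0.57 without pressure replicate 1, with an adjusted p of 0.0436.

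Nr4a3, at chr4:48045153-48086447, had 62, 37 and 23 counts in pressure replicates 1 to 3, against 29, 14 and 9 counts in control replicates 1 to 3. In CPM these were 3.86, 2.25 and 1.88 under pressure and 1.45, 0.747 and 0.595 in control. Both groups were spread widely and still did not overlap. Pressure over control, the log2 fold change was 1.49 ± 0.37 (SE, 95% interval 0.67 to 2.31), with an edgeR adjusted p of 0.00423. With 1 library left out it ran from 1.12 without pressure replicate 1 (edgeR adjusted p = 0.0215) to 1.98 without control replicate 1.

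Within libraries, the 3 ratios between NR4A genes overlapped between the groups. Nr4a2 over Nr4a1 was 1.12 ± 0.62 under pressure and 1.30 ± 0.33 in control (SD, n = 3 each; exact permutation p = 0.8, two-sided). Nr4a3 over Nr4a2 differed by 0.77 between the groups (exact p = 0.2) and Nr4a3 over Nr4a1 by 0.59 (exact p = 0.5). Leaving out 1 library, the first of these differences ran from 0.48 without control replicate 3 to 1.14 without control replicate 1, and the second from 0.13 to 1.12 without the same libraries. With 3 against 3, no ratio could reach an exact p of 0.05.

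The RXR receptors can pair with NR4A1 and NR4A2. Rxra and Rxrb were lower under pressure, with log2 fold changes of -0.32 and -0.34, and Rxrg was too low to be tested.

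SRF, its cofactors and the CREB family act upstream of the EGR and NR4A genes. Of 14 tested, 7 rose, 4 fell and 3 did not pass, beside 33.7% and 35.1% of all tested genes that rose and fell. With library totals as the only scaling 4 rose. Crtc1, a CREB coactivator, averaged 43.9 ± 10.1 CPM under pressure and 14.8 ± 1.07 CPM in control (log2 fold change 1.57 ± 0.16, SE). Atf1, a relative of CREB, averaged 131.2 ± 8.93 CPM under pressure and 72.3 ± 1.26 CPM in control. Creb1 itself was lower, with 40.1 ± 4.02 CPM under pressure and 81.1 ± 7.80 CPM in control (log2 fold change -1.01 ± 0.10, SE; edgeR adjusted p = 9.87e-06).

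For Egr2, the EGR gene that fell, RefSeq lists 5 starts, and 4 of their windows hold a CArG box, the SRF site of the form CC, 6 of A or T, GG. Of these windows 3 overlap and hold the same box, and the remaining window lies apart with another, so there are 2 distinct boxes. Over all windows 1.47% hold one. The window at chr10:67537619-67537868 (GRCm38.p6, plus strand), inside the gene's span and outside its annotated exons, is shown because its CArG box lies between a pair of cAMP-element cores, all in capitals. It was picked for this arrangement.
Egr2: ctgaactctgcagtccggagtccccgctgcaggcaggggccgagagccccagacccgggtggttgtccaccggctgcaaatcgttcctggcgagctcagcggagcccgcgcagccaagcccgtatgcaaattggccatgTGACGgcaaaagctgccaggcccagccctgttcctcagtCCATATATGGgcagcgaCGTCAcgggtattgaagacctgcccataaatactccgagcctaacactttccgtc
The box lies at positions -72 to -63 from that start. No window of the 6 genes held the EGR site GCGTGGGCG, in 0.536% of all windows, and the windows of Ier3 and Ier5 held none of the motifs searched. Nothing about the factors follows from a missing match.

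The IER genes differed widely in size of change. Ier3 was 4.94-fold higher under pressure, Ier2 2.48-fold higher, and Ier5 differed too little to be called. IER3 (IEX-1) is known as a regulator of apoptosis and of NF-κB signalling, IER2 as a nuclear protein of growth-factor responses, and IER5 as an activator of the heat-shock factor HSF1 in human cells.

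Ier3, at chr17:35821684-35822923 on the plus strand, measured 704.9, 451.6 and 367.5 CPM in pressure replicates 1 to 3, against 106.5, 104.9 and 97.5 CPM in control replicates 1 to 3. The pressure libraries were spread widely, all far above the controls. The change on the log2 scale was 2.30 ± 0.20 (SE, 95% interval 1.87 to 2.74; edgeR adjusted p = 3.19e-06). The coefficient of variation was 34.6% under pressure, where the 95th percentile of genes at 5 CPM or more was 25.8%.

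Ier2, at chr8:84661331-84662852 on the minus strand, measured 33.5, 27.0 and 30.0 CPM in pressure replicates 1 to 3, against 11.9, 13.7 and 10.8 CPM in control replicates 1 to 3. No control library came near the lowest pressure library. The log2 fold change was 1.31 ± 0.12 (SE, 95% interval 1.03 to 1.58; edgeR adjusted p = 6.04e-06).

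Ier5, at chr1:155096361-155099636 on the minus strand, measured 100.8, 81.8 and 80.4 CPM in pressure replicates 1 to 3, against 77.6, 79.9 and 68.6 CPM in control replicates 1 to 3. Pressure replicates 2 and 3 lay just above control replicate 2, so the groups were apart by a narrow margin. Pressure over control, the log2 fold change was 0.22 ± 0.10 (SE, 95% interval -0.01 to 0.45; edgeR adjusted p = 0.0856). Without pressure replicate 3 it was 0.28 with an adjusted p of 0.00481, and without pressure replicate 1 it was 0.11 with an adjusted p of 0.335. With library totals as the only scaling it was 0.0027 with an adjusted p of 0.981.

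**Figure D2:**
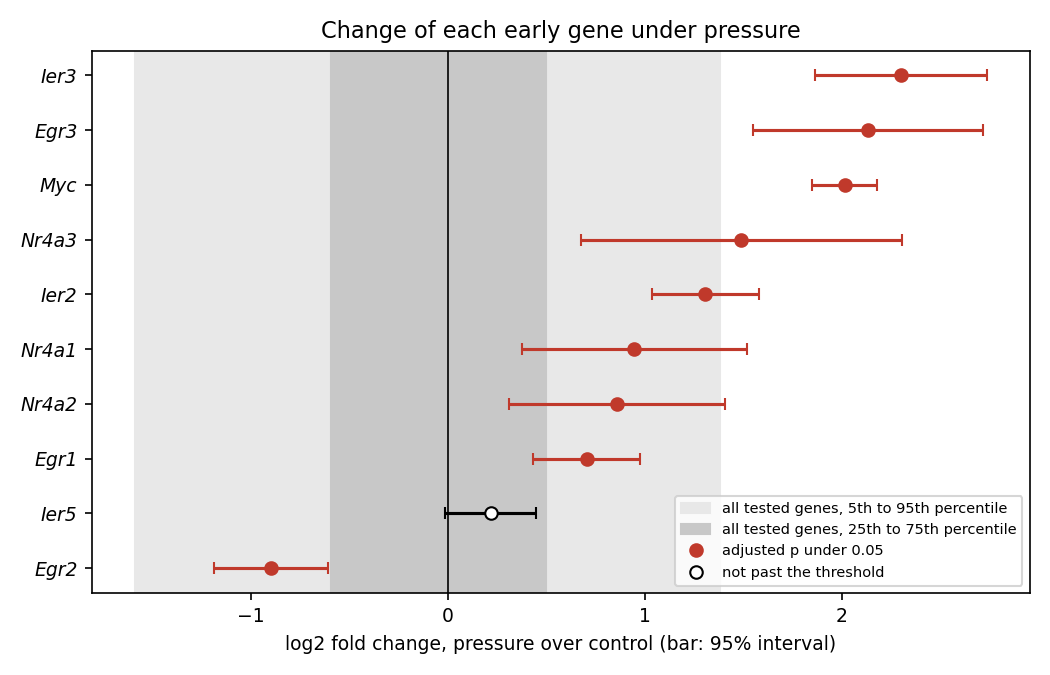
Log2 fold change of each gene, pressure over control, with its 95% interval, beside the percentiles of all 12892 tested genes. The intervals of Ier3, Egr3 and Myc lie above 1.5, that of Egr2 lies below 0, and that of Ier5 includes 0.

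The IER ratios within libraries come from the same counts and restate this order without scaling between libraries. Ier3 over Ier2 was 4.02 ± 0.39 under pressure and 3.09 ± 0.13 in control, and Ier5 over Ier3 was -2.49 ± 0.31 under pressure and -0.45 ± 0.06 in control (log2, SD, n = 3 each). Neither overlapped between the groups, and each gave the smallest exact p possible, 0.1. HSF1 and 10 of its chaperone and co-chaperone targets, the genes downstream of human IER5, were mixed. Against 33.7% of all tested genes that rose and 35.1% that fell, 2 of 11 rose, 5 fell and 4 did not pass. The genes that rose were Bag3, a co-chaperone at 206.7 ± 24.0 CPM under pressure and 114 ± 11.5 CPM in control, and Hsp90aa1, the inducible HSP90. Chordc1, an HSP90 co-chaperone, fell to 72.5 ± 4.81 CPM under pressure, against 109.3 ± 6.90 CPM in control. Hsf1 averaged 37.7 ± 4.15 CPM under pressure and 36.3 ± 0.627 CPM in control and did not pass (edgeR adjusted p = 0.617).

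Myc was 4.04-fold higher under pressure and, of the 10 genes, had the smallest spread there. It encodes the transcription factor that pairs with MAX at E-boxes to raise ribosome biogenesis and metabolism. Myc, at chr15:61985391-61990374 on the plus strand, measured 540.8, 529.2 and 512.0 CPM in pressure replicates 1 to 3, against 137.7, 132.7 and 120.8 CPM in control replicates 1 to 3. Both groups were tight and far apart, with a coefficient of variation of 2.75% under pressure. The change on the log2 scale was 2.02 ± 0.08 (SE, 95% interval 1.85 to 2.18; edgeR adjusted p = 3.73e-08).

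Myc rose more than its partner Max and than Mxd1, one of its antagonists. Max averaged 180.4 ± 3.63 CPM under pressure and 102.4 ± 4.05 CPM in control (log2 fold change 0.82 ± 0.07, SE). Mxd1, which competes with MYC for MAX, averaged 38.1 ± 6.01 CPM under pressure and 27.9 ± 1.89 CPM in control, a log2 fold change of 0.45 that was no longer called with library totals as the only scaling (edgeR adjusted p = 0.0921). Myc over Max was 1.55 ± 0.02 under pressure and 0.35 ± 0.06 in control (log2 within libraries, SD, n = 3 each; exact p = 0.1, two-sided). Myc over Mxd1 was 3.80 ± 0.19 under pressure and 2.22 ± 0.07 in control, also without overlap. The relatives of Mxd1, named after their values were seen, differed in direction. Their log2 fold changes were 0.62 for Mxd3, -0.23 for Mxd4, -0.74 for Mxi1 and -0.67 for Mnt.

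**Figure D3:**
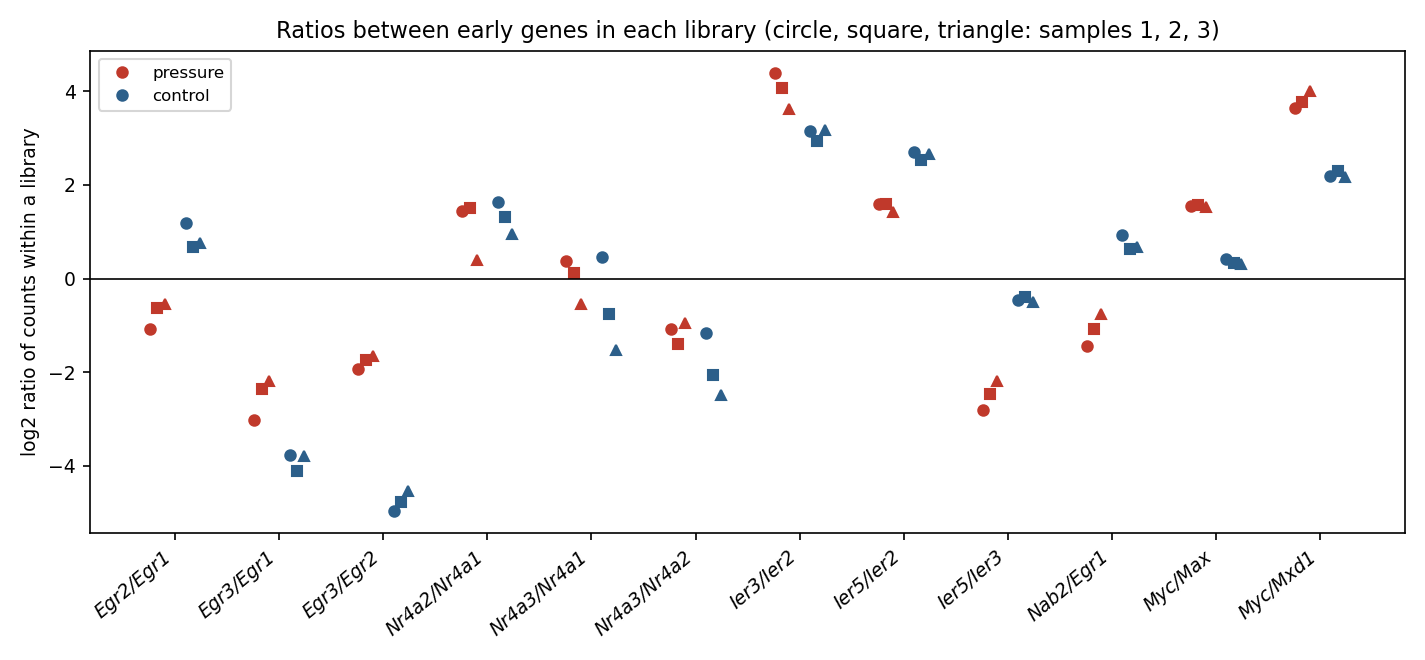
Log2 ratios of counts within each library for the 12 gene pairs, pressure samples beside control samples. Of the 12 pairs, 9 do not overlap between the groups, and the 3 NR4A pairs do. The share without overlap among other gene pairs was not computed, and among single tested genes it was 71.9%. The Nab2 over Egr1 pair, among the 9, rests on the uncertain Nab2 value.

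In the wider MYC network 5 of 10 tested genes rose, 4 fell and 1 did not pass. The shares over all tested genes were 33.7% higher and 35.1% lower. With library totals as the only scaling, 2 genes of the network rose. Mycn, the neuronal paralogue, had 28, 22 and 18 counts in pressure replicates 1 to 3, against 3, 1 and 1 counts in control replicates 1 to 3. It was thus far scarcer than Myc. Mga, a repressive MAX partner, averaged 49.3 ± 3.17 CPM under pressure and 103.7 ± 7.66 CPM in control. Mlxip, a glucose-sensing relative, averaged 79.2 ± 6.93 CPM under pressure and 74.5 ± 6.29 CPM in control and did not pass.

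Of 9 tested genes whose products act on MYC protein stability, 6 rose, none fell and 3 did not pass. Over all tested genes 33.7% rose and 35.1% fell. With library totals as the only scaling, 4 of the 9 rose and 1 fell. Gsk3b, a kinase that marks MYC for degradation, averaged 238.6 ± 30.3 CPM under pressure and 143.5 ± 7.08 CPM in control. Aurka, a kinase that stabilises MYCN, averaged 5.59 ± 0.501 CPM under pressure and 2.32 ± 0.551 CPM in control. Fbxw7, part of the ubiquitin ligase that reads the GSK3 mark, averaged 53.8 ± 2.08 CPM under pressure and 52.8 ± 5.13 CPM in control and did not pass.

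Among 27 tested textbook MYC targets, 23 rose, 2 fell and 2 did not pass, beside 33.7% higher and 35.1% lower over all tested genes. The median log2 fold change of the 27 was 0.92, and 18 rose with library totals as the only scaling. Ncl, the nucleolar protein nucleolin, averaged 2235 ± 177 CPM under pressure and 906.4 ± 4.69 CPM in control (log2 fold change 1.30 ± 0.07, SE; edgeR adjusted p = 1.89e-07). Nop58, a core protein of box C/D snoRNPs, averaged 346 ± 34.9 CPM under pressure and 126.1 ± 7.31 CPM in control. Rrs1, a ribosome assembly factor, rose as well, with a log2 fold change of 1.33 ± 0.08 (SE). The genes that fell, named after their values were seen, were Tfrc, the transferrin receptor (-0.44), and Cad, an enzyme of pyrimidine synthesis (-0.38).

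The 50 other early genes tested, among them FOS, JUN, ATF and KLF factors and early feedback genes, included 43 that rose, 3 that fell and 4 that did not pass, with a median log2 fold change of 1.02. Of all tested genes, 33.7% rose and 35.1% fell. With library totals as the only scaling, 40 of the 50 rose and 6 fell. Phlda1, an early regulator of apoptosis, averaged 78.2 ± 5.06 CPM under pressure and 5.96 ± 0.511 CPM in control (log2 fold change 3.71 ± 0.11, SE; edgeR adjusted p = 1.68e-08). Arid5a, which stabilises inflammatory mRNAs, and Ppp1r15a, the GADD34 phosphatase subunit of the stress response, had log2 fold changes of 3.26 and 2.52. The genes that fell, named after their values were seen, were Klf10 (-0.75), Gadd45a (-0.31) and Dusp6 (-0.22). With 1 library left out, the Dusp6 call was lost without pressure replicate 2 (edgeR adjusted p = 0.0695), without control replicate 2 (0.0640) and without control replicate 3 (0.0521).

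**Figure D4:**
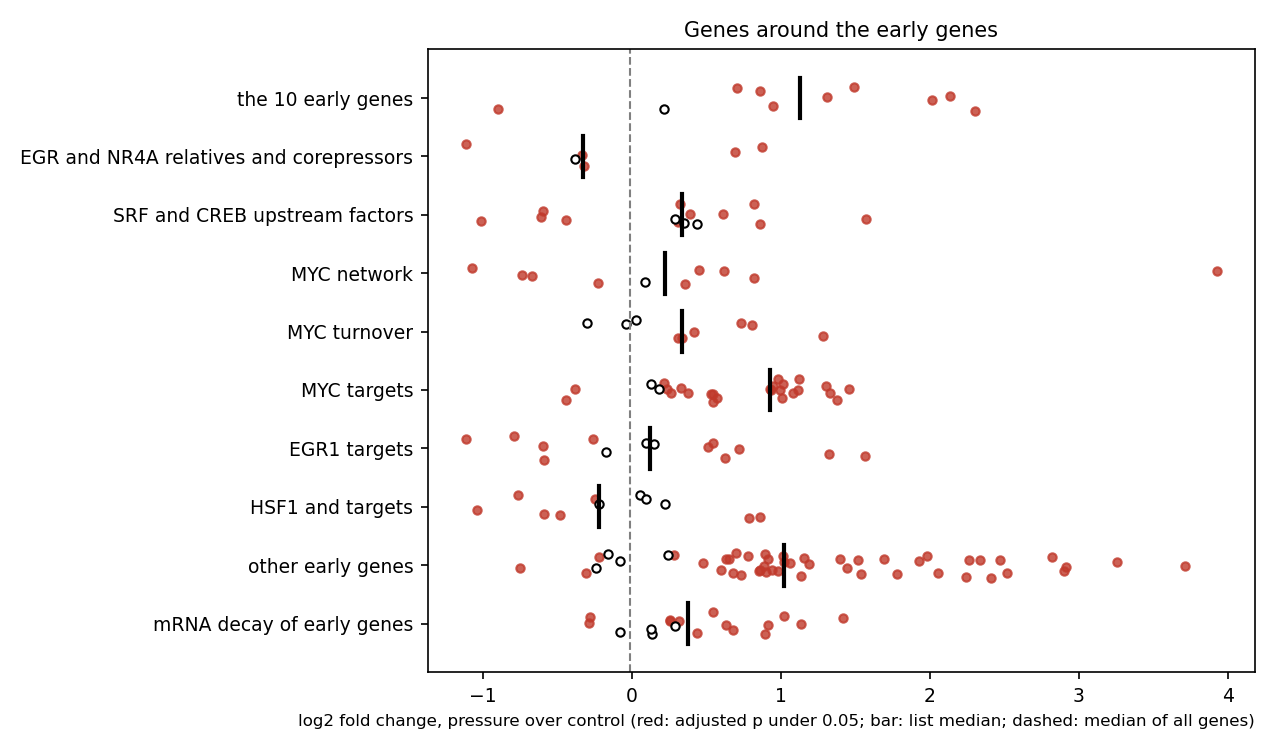
Log2 fold change, pressure over control, of each tested gene in the 10 early genes and the lists around them; filled points passed an adjusted p of 0.05, bars are list medians and the dashed line is the median of all tested genes. The 10 early genes (median 1.13), the other early genes (1.02) and the MYC targets (0.92) have the highest medians of the lists drawn, which leave out the cell type markers.

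Levels of different genes can be compared only per length, here as CPM per kilobase of GENCODE exons. In the pressure group the order was Ier3 (449), Myc (194), Ier5 (26.8), Ier2 (19.8), Egr1 (4.49), Egr2 (3.56), Nr4a2 (1.46), Egr3 (0.808), Nr4a1 (0.745) and Nr4a3 (0.445). In control it was Ier3 (91.0), Myc (48.0), Ier5 (23.0), Ier2 (7.98), Egr2 (6.61), Egr1 (2.76), Nr4a2 (0.821), Nr4a1 (0.391), Egr3 (0.182) and Nr4a3 (0.155). Egr1 and Egr2 changed places between the groups, as did Nr4a1 and Egr3. Neighbours whose libraries overlapped were Nr4a2 and Egr3, Egr3 and Nr4a1, and Nr4a1 and Nr4a3 in the pressure group, and Egr3 and Nr4a3 in control.

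Among pressure libraries, replicate 1 was the highest for 8 of the 10 genes and replicate 3 the lowest for 6. Over all tested genes, pressure replicate 3 was the closest of the 3 to the controls, with correlations of 0.938 to 0.940 against 0.922 to 0.927 for pressure replicate 1. Markers of other cell types were present at lower sums, several of which moved with pressure. The hepatocyte list summed to 23.5 to 28.2 CPM under pressure and 15.8 to 19.6 CPM in control, with 3 of 6 tested markers higher and Tat at 0 in every library. The cholangiocyte list summed to 9.22 to 12.1 CPM under pressure and 5.22 to 5.28 CPM in control, with all 3 tested markers higher. The lymphocyte and granulocyte list summed to 80.6 to 108.3 CPM under pressure and 57.5 to 68.0 CPM in control, most of it Ptprc, the pan-leukocyte CD45, at 93.5 ± 14.3 CPM under pressure and 59.5 ± 4.97 CPM in control (SD, n = 3 each). Of its 3 tested markers 1 rose, 1 fell and 1 did not pass, and S100a9, a granulocyte marker, was at 0 in every library. The stellate list summed to 174.3 to 192.4 CPM under pressure and 157.4 to 169.6 CPM in control, with 2 of 9 tested markers higher and 2 lower. Of the 10 endothelial markers, 7 fell, none rose and 3 did not pass, and their sum was 4858 to 5762 CPM under pressure and 5999 to 6378 CPM in control. Their part in the results above was not tested.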

How the data were processed

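Poly(A) RNA libraries (TruSeq stranded kit, single reads) of 3 pressure and 3 control samples were analysed. The authors deposited 1 table of expected counts per sample, partly fractional; mm10, TopHat2 2.2.1 and Cufflinks 2.2.1 are named per the submitters' processing notes, with their roles, the counting tool and its strand setting not given in the sources used here. Counts were rounded, filtered by expression (filterByExpr: minimum count 10, total 15; 12892 genes, 99.9% of counts), TMM-scaled and tested with edgeR 4.0.16's quasi-likelihood test, with Benjamini-Hochberg adjustment over all genes. Library ratios used log2(count + 0.5) and an exact two-sided permutation test. The procedure was run on simulated counts in which few genes changed, evenly in both directions. Most tested genes were called in the real data, so that run did not test the scaling used here. Alternatives were other scalings and filters, DESeq2 1.42.0, limma-voom 3.58.1 and leaving out each library. Every one of the 10 genes was named; from each surrounding list, up to 3 called genes with the smallest p and up to 2 uncalled with the highest level, plus a few relatives. The genes and lists were chosen with earlier results of these data known. Lengths came from GENCODE M21, promoter windows from RefSeq (GRCm38.p6).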

Additional observations from a re-analysis of the deposited data

How the results depend on the processing

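Every one of the 10 genes kept its direction under every alternative that could be run for it. With a mean of at least 5 CPM required, Egr3, Nr4a1, Nr4a2 and Nr4a3 were not tested, leaving 5 called genes, 4 of them higher. Otherwise 9 or 10 were called, 10 without pressure replicate 3. The Nr4a2 over Nr4a1 difference was -0.18 and ran from -0.38 to 0.18 with 1 library left out, changing sign without pressure replicate 3; the cause was not tested. Leaving out 1 library gave 7981 to 9746 called genes, against 8871. With library totals only, 34.7% of called genes were higher, against 49.0% with TMM factors. The log2 fold change of each gene shifted from that of the TMM fit, by a median of -0.21 over genes. With upper-quartile factors these values were 41.2% and -0.11. Deviations of same-numbered samples correlated at 0.129, -0.230 and -0.134, and those of differently numbered samples at -0.170 to 0.292. The main fit did not pair samples. With 3 samples a group, these values cannot tell whether same-numbered samples shared a source. With a replicate block 8384 genes and 9 of the 10 were called. Depth limits Egr3 and the NR4A genes, at 9 to 131 counts a library.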

Other observations

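The list of proteins that shorten or protect early mRNAs shares 5 genes with the other early genes counted above, Btg1 and Zfp36l2 among them. Of 18 tested, 12 rose, 2 fell and 4 did not pass under pressure, with a median log2 fold change of 0.38. Among all tested genes 33.7% rose and 35.1% fell. With library totals as the only scaling, 8 of the 18 rose and 3 fell. The count that fell was 0 at an adjusted p of 0.01, and 1 without pressure replicate 1 or 2 or without control replicate 1, 2 or 3. Btg1, which recruits the CCR4-NOT deadenylase, averaged 280.6 ± 7.36 CPM under pressure and 127.5 ± 2.01 CPM in control. Zfp36l2, a protein that binds AU-rich elements, averaged 452.4 ± 37.2 CPM under pressure and 223.1 ± 12.9 CPM in control. Hnrnpd (AUF1), another such protein, averaged 371.2 ± 19.9 CPM under pressure and 196.9 ± 9.47 CPM in control (SD, n = 3 each).

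The genes whose levels over the 6 libraries were most like those of the gene of each family with the highest mean CPM over all 6 libraries are a description only, since the points share the group difference. For Egr2 they were Ranbp6, A630001G21Rik and Gm13212 (Pearson r of at least 0.997), for Nr4a2 Asun, Tbc1d25 and Crebbp, for Ier3 Sec24b, Spry2 and Ctdp1, and for Myc Aars, Cops8 and Rrp12. Of the genes compared, 11.6% had an r over 0.95 with Egr2, 3.04% with Nr4a2, 18.2% with Ier3 and 19.8% with Myc.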
